A study of Mus musculus with 6 samples.

Results

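The genes described here are those of MHC class II antigen presentation, read in RNA-seq libraries of mouse bone and bone marrow-derived osteoblasts. They are the 10 genes *H2-Aa*, *H2-Ab1*, *H2-Eb1*, *H2-DMa*, *H2-DMb1*, *H2-DMb2*, *H2-Oa*, *H2-Ob*, *Cd74* and *Ciita*, chosen by name among the 48733 named genes of the deposited tables. Of the 10, 6 (*H2-Aa*, *H2-Ab1*, *H2-Eb1*, *H2-Oa*, *H2-Ob* and *Cd74*) have a feature that carries the gene's name. The other 4 (*H2-DMa*, *H2-DMb1*, *H2-DMb2* and *Ciita*) have no named feature, and for them unnamed features over the gene's position are given apart.

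All libraries came from femora of the inbred Collaborative Cross strain CC016/GeniUnc, with no mutation or transgene, and the age of the mice is not given in the sources used here. There are 3 libraries labelled bone, from femur after the marrow was spun out, and 3 labelled osteoblasts. The latter are from adherent marrow cells that were expanded in culture and then differentiated with dexamethasone, ascorbic acid and beta-glycerophosphate. The cultures were selected by adhesion alone, and the sources used here give no count of other marrow cells in either preparation. The methods give 3 mice but do not tie libraries to them, so p-values measure the spread between these libraries, which are called bone 1 to 3 and osteoblasts 1 to 3 by label and replicate number.

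MHC class II molecules are pairs of an alpha and a beta chain that show peptides from endocytosed proteins to CD4 T cells, and they are made mainly by B cells, dendritic cells and activated macrophages. The invariant chain, encoded by *Cd74*, fills the groove of a new class II molecule until proteases cut it down, after which the H2-DM heterodimer exchanges the remaining fragment for a peptide and H2-O holds H2-DM back. Apart from *Ciita* itself, the genes are known to share a promoter module of an X box and a Y box. The RFX complex binds the X box and NF-Y the Y box, and the coactivator CIITA assembles on them. In marrow the genes are known for marking B cells and antigen-presenting cells and not bone-forming cells.

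The promoter module is shown first, for those of the genes in which it was found. RefSeq promoters (GRCm38.p6, 250 bases before to 50 after each start) were at hand for 7 of the 10 genes, and 6 of these hold the Y box core TGATTGG. In each line the capitals mark an X box core (CNNATGATG, or GCAAC where that was not found) and then the Y box core, read on the gene's own strand.
H2-Aa: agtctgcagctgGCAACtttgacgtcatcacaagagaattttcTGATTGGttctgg
H2-Eb1: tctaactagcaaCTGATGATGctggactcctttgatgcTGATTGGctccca
H2-DMb1: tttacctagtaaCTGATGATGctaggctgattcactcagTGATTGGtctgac
H2-DMb2: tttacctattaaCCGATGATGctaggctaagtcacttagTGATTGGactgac
H2-Oa: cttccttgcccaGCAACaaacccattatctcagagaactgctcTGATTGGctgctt
H2-Ob: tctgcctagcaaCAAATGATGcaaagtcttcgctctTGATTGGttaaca

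These stretches lie on chromosome 17, at chr17:34287861-34287916 on the minus strand for *H2-Aa* and on the plus strand for the others. The positions are chr17:34305768-34305818 for *H2-Eb1*, chr17:34153089-34153140 for *H2-DMb1*, chr17:34145118-34145169 for *H2-DMb2*, chr17:34092291-34092346 for *H2-Oa* and chr17:34238810-34238858 for *H2-Ob*. All are upstream of the start site they were taken for, and the *H2-DMb2* stretch lies inside the longest span RefSeq gives that gene. From the first base of the X box core to the first base of the Y box core there were 31 bases in *H2-Aa* and *H2-Oa*, 27 in *H2-DMb1* and *H2-DMb2*, 26 in *H2-Eb1* and 24 in *H2-Ob*. The first 2 are counted from GCAAC and the other 4 from CNNATGATG; counted from GCAAC, which overlaps CNNATGATG in *H2-Eb1* and *H2-Ob*, these had 30 and 28 bases. The Y box core began between 45 bases (*H2-Oa*) and 92 bases (*H2-DMb2*) before the start site.

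Read on both strands, TGATTGG occurs in 2568 of 32851 RefSeq promoters of the same length (7.82%), CNNATGATG in 902 (2.75%) and GCAAC in 11566 (35.2%). CNNATGATG followed within 50 bases by TGATTGG on the same strand occurs in only 5 promoters (0.0152%), those of *H2-Eb1*, *H2-DMb1*, *H2-DMb2* and *H2-Ob* and that of *Fthl17f*, which is no class II gene. GCAAC followed by TGATTGG occurs in 129 (0.393%), among them *H2-Aa*, *H2-Eb1*, *H2-Oa* and *H2-Ob*. The letters of the cores were settled after these sequences were seen, so the shares describe how common the letters are and are not a test. Neither promoter listed for *H2-DMa* holds TGATTGG.

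The values are FPKM, fragments scaled to transcript length and to the mapped reads of the library, as the authors' software gave them. Estimated from coverage, the libraries hold 13565300 to 22584000 aligned read pairs, and 3 pairs on a transcript of 1 kb give 0.133 to 0.221 FPKM, which is taken as the floor. Longer transcripts have a lower one. The libraries stand apart in a way the labels do not give. *Hbb-bt*, a beta globin gene that marks red blood cells and their precursors, was at 34838 FPKM in bone 3, 34268 in osteoblasts 2 and 48650 in osteoblasts 3, against 3.43 to 7.05 in bone 1, bone 2 and osteoblasts 1. The osteoblast gene *Col1a1* was high in all 6 libraries (1499 to 3332 FPKM). *Ibsp*, another gene of bone-forming cells, was at 986 to 1278 FPKM in bone 1, bone 2 and osteoblasts 1 and at 43.1 to 91.3 in the others. Of 6 osteoblast genes tested, 2 were lower in the libraries high in *Hbb-bt* and 0 higher, beside 16.9% and 38.4% of all genes tested. With FPKM rescaled to the sum of named genes, 5 of the 6 were lower, *Col1a1* among them, and 0 higher. The shares of all genes were then 48.6% and 21.4%. The osteocyte gene *Sost*, whose product restrains bone formation, was at 15.8 to 22.7 FPKM in bone 3, osteoblasts 2 and osteoblasts 3 and at 0.0661 to 0.198 in the other 3. *Dmp1*, another osteocyte gene, went the other way, at 22.5 to 24.2 FPKM in the first 3 and 50.0 to 127 in the other 3. The osteocyte genes *Phex*, *Pdpn* and *Irx5* overlapped on the FPKM scale. After the rescaling to named genes *Phex* and *Irx5* were lower in the libraries high in *Hbb-bt* as well. That made 3 of the 5 osteocyte genes lower and 1 higher. Whether labels of some libraries were exchanged was not tested. Every difference of osteoblasts minus bone below rests on the labels as deposited, and the 3 libraries above 1000 FPKM for *Hbb-bt* are named as such without being treated as a group of the study. In bone 2 and osteoblasts 1 unnamed features took 71.5% and 65.0% of all FPKM, against 27.4% to 30.7% elsewhere.

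The classical class II chains were abundant in the 3 libraries high in *Hbb-bt* and near or below the floor in the other 3. *H2-Aa*, the alpha chain of the H2-A molecule, was at 329.7 FPKM in bone 3, 420.1 in osteoblasts 2 and 214 in osteoblasts 3. It was listed at 0 in bone 1 and bone 2 and was at 0.0986 FPKM in osteoblasts 1, below the floor. *H2-Ab1*, the beta chain of the same molecule, was at 245, 330.1 and 133 FPKM in bone 3, osteoblasts 2 and osteoblasts 3, and at 0.493, 0.0845 and 0.18 FPKM in bone 1, bone 2 and osteoblasts 1. The lowest of the high *H2-Ab1* values was thus 269.8 times the highest of the low ones, and each label held libraries of both kinds.

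*H2-Eb1*, the beta chain of the H2-E molecule, followed the same split at a much lower level. It was at 3.97 FPKM in bone 3, 4.63 in osteoblasts 2 and 2.85 in osteoblasts 3, and at 0.512, 0.0565 and 0.337 FPKM in bone 1, bone 2 and osteoblasts 1. Among genes at 1 FPKM or more in a library, 27.1% to 40.3% lay below *H2-Eb1* in the 3 libraries where it was highest, whereas 97.3% to 99.0% lay below *H2-Ab1* and *H2-Aa*. The FPKM of *H2-Eb1* was 0.0162, 0.014 and 0.0214 of that of *H2-Ab1* in bone 3, osteoblasts 2 and osteoblasts 3. The alpha and beta chains of H2-A stood closer together, with a ratio of *H2-Aa* to *H2-Ab1* of 1.35, 1.27 and 1.61 in the same libraries. Class II chains differ in sequence between mouse strains, and what a difference between CC016/GeniUnc and the reference genome does to these levels was not tested.

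*Cd74*, the invariant chain, had the highest FPKM of the 6 named class II genes in the 5 libraries where any of them was above the floor; in bone 2 none was. It was at 669 FPKM in bone 3, 871 in osteoblasts 2 and 477 in osteoblasts 3. It was at 1.71 FPKM in bone 1, 0.0984 in bone 2 and 0.467 in osteoblasts 1. In the first 3 of these libraries 99.2% to 99.4% of genes at 1 FPKM or more lay below it, and in bone 1 it was the only one of the 6 above 1 FPKM. The ratio of *Cd74* to *H2-Ab1* was 2.73, 2.64 and 3.59 in bone 3, osteoblasts 2 and osteoblasts 3.

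H2-O, the modulator of peptide loading, is made of the products of *H2-Oa* and *H2-Ob* and is known mainly from B cells. *H2-Oa* was at 3.83, 4.5 and 5.44 FPKM in bone 3, osteoblasts 2 and osteoblasts 3 and was listed at 0 in the other 3 libraries. *H2-Ob* was at 2.73, 5.92 and 5.05 FPKM in the same libraries and was likewise listed at 0 in the others. Against the highest floor of any library, 0.221 FPKM, their lowest values were at least 17.3-fold (*H2-Oa*) and 12.4-fold (*H2-Ob*) higher. The ratio of *H2-Oa* to *H2-Ob* was 1.4, 0.76 and 1.08, so neither chain was the higher in all 3.

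For the peptide exchanger H2-DM and for CIITA, only unnamed features over the genes were measured. The feature over *H2-DMa*, which encodes the alpha chain, was at 24.1, 34.2 and 18.4 FPKM in bone 3, osteoblasts 2 and osteoblasts 3 and at 7.68, 4.41 and 5.08 FPKM in bone 1, bone 2 and osteoblasts 1. A single feature covers both beta chain genes, *H2-DMb2* and *H2-DMb1*, and was at 19.6, 28.6 and 22.6 FPKM against 4.79, 2.35 and 1.78. The lowest high value was 2.39 times the highest low value for *H2-DMa* and 4.09 times for the H2-DMb feature, far less than for *H2-Ab1*. The *H2-DMa* feature shares 2737 bases with *Brd2*, a widely expressed gene on the other strand, and the library kit does not mark strand, so reads of the 2 cannot be told apart there.

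The feature over *Ciita*, the coactivator without which the class II promoters are silent in most cells, was at 6.34, 8.8 and 5.46 FPKM in bone 3, osteoblasts 2 and osteoblasts 3. It was at 0.0704 FPKM in bone 1, below the floor, and listed at 0 in bone 2 and osteoblasts 1. The lowest high value was 24.7 times the highest floor. The libraries with *Ciita* above the floor were therefore the ones with *H2-Aa* above the floor.

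**Figure D1:**
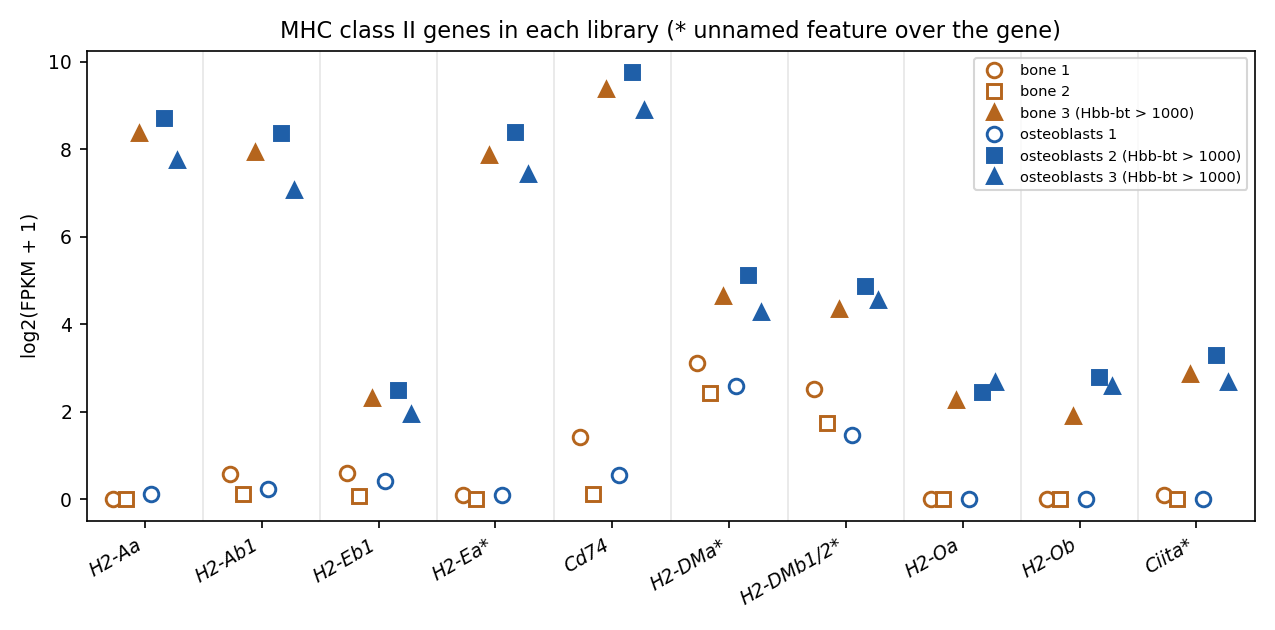
Level of each class II gene in each library as log2(FPKM + 1), with bone in brown, osteoblasts in blue, filled symbols for libraries with *Hbb-bt* above 1000 FPKM and 1 symbol per library. For every gene drawn the filled symbols lie above the open ones, and each label has both kinds; asterisks mark unnamed features, of which 1 spans *H2-DMb2* and *H2-DMb1*.

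All 6 named class II genes had every library with *Hbb-bt* above 1000 FPKM above every other library. Of the 12112 genes whose FPKM averaged 1 or more over the libraries, 38.4% did the same and 16.9% did the reverse, so the direction alone is common. A gene near 0 elsewhere reaches that average only through the libraries where it is high, which holds for these class II genes too, so the counts describe them and support nothing. When FPKM were rescaled to the sum of named genes, 21.4% of genes were above and 48.6% below, while the class II genes stayed above in 6 of 6. After that rescaling *H2-Ab1* was at 182, 249 and 105 in bone 3, osteoblasts 2 and osteoblasts 3, and at 0.539, 0.154 and 0.3 in the others. The 6 named genes added up to 1255, 1636 and 838 FPKM in bone 3, osteoblasts 2 and osteoblasts 3, and to 2.71, 0.239 and 1.08 FPKM in bone 1, bone 2 and osteoblasts 1.

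The study's own contrast is osteoblasts against bone, and by the deposited labels no class II gene passed the test. *H2-Aa* averaged 109.9 ± 190.4 FPKM in bone and 211 ± 210 in osteoblasts (SD, n = 3 each). *Cd74* averaged 224 ± 386 FPKM in bone and 449.7 ± 436 in osteoblasts (SD, n = 3 each). The SD was about as large as the mean or larger, and each label held high and low libraries. With limma on log2(FPKM + 1) over 12112 genes, *Cd74* had a log2 fold change of 2.75 (SE 2.79), *H2-Aa* of 2.74 (SE 2.63) and *H2-Ab1* of 2.35 (SE 2.42), osteoblasts minus bone. The values for *H2-Ob*, *H2-Oa* and *H2-Eb1* were 1.16 (SE 0.83), 0.96 (SE 0.86) and 0.62 (SE 0.72), and the adjusted p was 0.999 for all 6. These folds of low genes depend on the pseudocount: with 0.01 in place of 1 they were 6.06 for *H2-Aa*, 3.37 for *H2-Ob*, 3.11 for *H2-Oa* and 1.69 for *H2-Eb1*, and no gene was called. The exact permutation p of single genes (two-sided, 3 against 3, smallest possible 0.1) was 0.4 for *H2-Oa* and *H2-Ob*, 0.5 for *H2-Aa*, 0.6 for *H2-Ab1* and *H2-Eb1* and 0.7 for *Cd74*.

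limma called 0 of the 6 class II genes and 0 of the 12112 genes (0%) at an adjusted p under 0.05, and at an unadjusted p under 0.05 it had 0 of the 6 and 17 of all genes (0.14%). None of the 6 had every osteoblasts library above every bone library, against 58 of all genes (0.479%). The median log2 fold change was 1.75 over the 6 and 0.12 over all genes. The unnamed features gave 0.61 (SE 0.78) for *H2-DMa*, 0.76 (SE 0.98) for the H2-DMb genes and 1.0 (SE 1.01) for *Ciita*, each with a limma adjusted p of 1.0 over 15749 features.

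Either of 2 libraries decided this outcome. Without bone 3, limma called 3 of the 6 class II genes, *H2-Aa*, *H2-Ab1* and *Cd74*, with log2 fold changes of 5.53 (SE 1.24), 4.88 (SE 1.17) and 5.62 (SE 1.34) and an adjusted p of 0.049 each, and 77 of all genes (0.636%). Without osteoblasts 1 it called 4 of the 6, with 5.44 (SE 1.15) for *H2-Aa*, 4.84 (SE 1.08) for *H2-Ab1*, 5.68 (SE 1.2) for *Cd74* and 2.06 (SE 0.6) for *H2-Ob*, at limma adjusted p-values of 0.0063, 0.009, 0.0063 and 0.048, and 300 of all genes (2.48%). All of these class II calls were higher in osteoblasts. In each of these fits 1 library remains whose *Hbb-bt* goes against the others of its label, and its class II level went with *Hbb-bt* and not with the label. Without bone 3 this is osteoblasts 1, with *Hbb-bt* at 3.43 FPKM and *H2-Aa* at 0.0986, and without osteoblasts 1 it is bone 3, with 34838 and 329.7 FPKM.

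**Figure D2:**
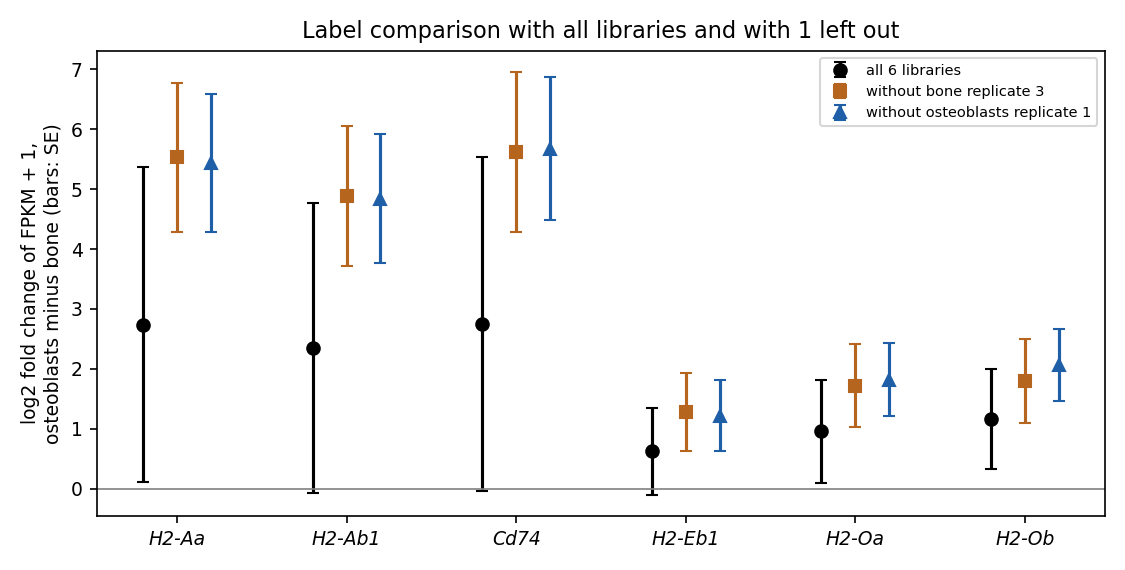
The log2 fold change of FPKM + 1 between the labels (osteoblasts minus bone) for the 6 named class II genes, with bars for the SE, from all 6 libraries (black) and with bone 3 (brown) or osteoblasts 1 (blue) left out. With all libraries the SE of *H2-Aa* (2.63) nearly equals its value (2.74), and without either library the value is higher (5.53 or 5.44) and the SE lower (1.24 or 1.15).

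Genes that mark the cells known to carry class II were read beside it. The B cell list moved with class II: 8 of 9 genes were above in all 3 libraries high in *Hbb-bt*, beside 38.4% of all genes (21.4% after scaling to named genes). The list summed to 153 to 159 FPKM there against 7.27 to 20.9 in the others, where 6 of the 9 were listed at 0. *Cd79b*, a chain of the B cell receptor complex, was at 50.7, 60.0 and 55.5 FPKM in bone 3, osteoblasts 2 and osteoblasts 3 and listed at 0 in the other 3. *Ebf1*, the remaining gene, is also expressed in stromal cells and overlapped (11.0 to 14.7 FPKM in those 3 against 7.27 to 20.5 in the others); after scaling to named genes it was below. Of the 8 dendritic cell genes with a name, with no filter on level, 6 were above and 0 below (5 and 1 after scaling to named genes). Of all genes averaging 1 FPKM or more, 38.4% were above and 16.9% below (21.4% and 48.6% after that scaling). The 8 dendritic cell genes summed to 18.5 to 23.6 FPKM against 4.31 to 15.0, and *Flt3* was at 2.19 to 3.03 FPKM against a listed 0. *Clec10a*, the highest of the list in the libraries low in *Hbb-bt*, overlapped, at 4.85 to 5.76 FPKM against 3.85 to 13.8. It was the gene that was below after scaling. *Xcr1*, near or below the floor, overlapped as well. The share of these cells in the class II levels was not tested, and in bulk RNA fewer cells of a type and less RNA per cell cannot be told apart.

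The macrophage list went the other way. All 8 genes tested were lower in the 3 libraries in which class II was high, under both scalings, as were 16.9% of all genes on the FPKM scale and 48.6% after scaling to named genes, with a sum of 412 to 543 FPKM against 1423 to 2818. *C1qa*, a complement gene of tissue macrophages, was at 1156, 575 and 633 FPKM in bone 1, bone 2 and osteoblasts 1, the libraries where *H2-Aa* was below the floor, and at 176, 241 and 173 in the others. *Csf1r*, the receptor that macrophages need to live, was at 363, 179 and 196 FPKM against 46.5, 51.7 and 44.0. *Cd74* was 0.00148, 0.000171 and 0.000738 of *C1qa* in bone 1, bone 2 and osteoblasts 1, and 3.81, 3.61 and 2.76 times *C1qa* in the others. In bone 2 *Cd74* was below the floor, so that ratio is uncertain. The 3 libraries with the higher macrophage values were thus the 3 with the lower class II values, and the part of macrophages in this difference was not tested.

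Other blood and tissue markers split the same way as class II. All 10 neutrophil genes, the 3 erythroid genes other than *Hbb-bt*, all 5 T cell genes, all 5 endothelial genes and all 3 skeletal muscle genes with a name were higher in the 3 libraries, and the neutrophil list summed to 14393 to 17418 FPKM against 2.59 to 9.91. Of all genes averaging 1 FPKM or more, 38.4% were higher there too (21.4% after scaling to named genes). Their part in the class II difference was not tested. Both monocyte genes tested were lower in the 3 libraries, as were 16.9% of all genes (48.6% after scaling to named genes). Between the labels limma called none of the genes of these lists.

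**Figure D3:**
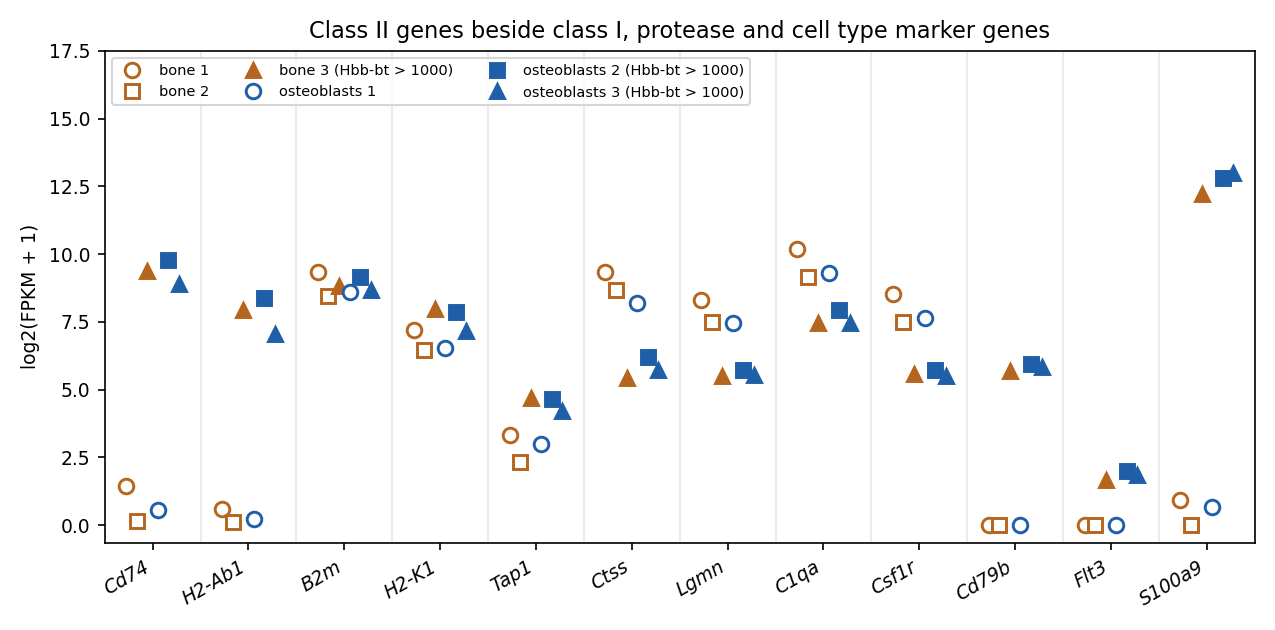
Level of *Cd74* and *H2-Ab1* as log2(FPKM + 1) in each library beside class I genes (*B2m*, *H2-K1*, *Tap1*), proteases (*Ctss*, *Lgmn*) and markers of macrophages (*C1qa*, *Csf1r*), B cells (*Cd79b*), dendritic cells (*Flt3*) and neutrophils (*S100a9*), with symbols as in the plot of the class II genes. Filled symbols (*Hbb-bt* above 1000 FPKM) lie above the open ones for *Cd74*, *H2-Ab1*, *Tap1*, *Cd79b*, *Flt3* and *S100a9*. They lie below the open ones for *C1qa*, *Csf1r*, *Ctss* and *Lgmn*, and overlap them for *B2m* and *H2-K1*.

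The factors that act on class II promoters varied far less than *H2-Aa*, *H2-Ab1* and *Cd74*. Of the 7 genes for the RFX subunits, the NF-Y subunits and CREB1, 4 were above in the 3 libraries high in class II and 0 below on the FPKM scale, but 1 was above and 1 below after scaling to named genes. The shares of all genes were 38.4% above and 16.9% below, and 21.4% and 48.6% after scaling. *Rfx5*, the DNA-binding RFX subunit, was at 3.94, 2.55 and 2.47 FPKM in bone 1, bone 2 and osteoblasts 1 and at 4.58, 6.54 and 4.22 in the others. *Nfya*, an NF-Y subunit, was at 5.56 to 11.0 FPKM against 14.3 to 20.7, and after scaling to named genes both genes overlapped. *Rfxank*, another RFX subunit, was at 1.72 to 2.99 FPKM against 7.19 to 14.7, and was the 1 gene that stayed above after that scaling. The RNA of these factors was present in bone 1 and bone 2, in which *H2-Aa* was listed at 0. The feature over *Ciita* was not above the floor in bone 1 and bone 2. The part of these factors or of *Ciita* in the class II difference was not tested, and the B cell genes differed between the same libraries.

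Among 8 genes of the interferon and myeloid pathways that induce *Ciita*, 4 were above and 1 below in the same libraries (3 and 4 after scaling to named genes). Beside them, 38.4% of all genes were above and 16.9% below (21.4% and 48.6% after scaling). *Irf1*, an interferon response factor, was at 26.5 to 45.1 FPKM against 6.37 to 16.9, and *Irf8*, a factor of B and dendritic cells, at 38.6 to 44.3 against 10.9 to 20.1. *Ifngr2*, a chain of the interferon gamma receptor, was at 12.3 to 13.8 FPKM against 15.0 to 29.6.

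The proteases that prepare class II went against it. Of 5 antigen processing genes tested, 4 were lower in the 3 libraries high in class II under both scalings, and 0 were higher, beside 16.9% and 48.6% of all genes lower. *Ctss*, the cathepsin that trims the invariant chain in B and dendritic cells, was at 654, 404 and 292 FPKM in bone 1, bone 2 and osteoblasts 1 and at 41.5, 72.4 and 51.1 in the others. *Lgmn*, an endopeptidase of the same pathway, was at 176 to 317 FPKM against 44.3 to 52.4. *Ifi30*, a thiol reductase that opens disulphide bonds of antigens, overlapped, at 25.0 to 52.0 against 47.0 to 78.1. The ratio of *Cd74* to *Ctss* was 16.1, 12.0 and 9.35 in the libraries high in class II and between 0.000244 and 0.00261 in the others. The lowest of these is from bone 2, where *Cd74* was below the floor.

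Class I genes, which are expressed by nearly all cells, differed little beside *H2-Aa*, *H2-Ab1* and *Cd74*. *B2m*, the light chain of class I, overlapped (405 to 561 FPKM in the 3 libraries high in class II and 350.3 to 648 in the others). Of the 6 class I genes tested, 3 were above and 0 below on the FPKM scale, and 2 were above and 2 below after scaling to named genes. Over all genes the shares were 38.4% above and 16.9% below, and 21.4% and 48.6% after scaling. *Cd74* was 1.5, 1.55 and 1.18 times *B2m* in bone 3, osteoblasts 2 and osteoblasts 3 and at most 0.00263 of it in the others. Of 4 genes of class II turnover and costimulation, *Cd40* and *Cd83*, found on activated B and dendritic cells, were above (3.48 to 7.19 and 3.04 to 4.82 FPKM against 0.161 to 0.629 and 0.525 to 1.36), *Cd86*, a ligand for T cell costimulation, was below (0.808 to 1.5 against 1.72 to 3.78), and *March1*, a ligase that removes class II from the surface, overlapped. After scaling to named genes *March1* was below as well, which made 2 above and 2 below, beside 21.4% and 48.6% of all genes.

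Within the 3 libraries high in class II the genes did not keep 1 order. *H2-Aa*, *H2-Ab1*, *H2-Eb1* and *Cd74* were highest in osteoblasts 2, then bone 3, then osteoblasts 3, as were the features over *H2-DMa* and *Ciita*. That makes 4 of the 6 named genes, against 12.7% of all genes in that order, which was noticed in these values and not tested. Relative to bone 3, osteoblasts 3 held 0.544 of the *H2-Ab1*, 0.648 of the *H2-Aa* and 0.713 of the *Cd74*, but 1.42 of the *H2-Oa* and 1.85 of the *H2-Ob*. The B cell genes *Cd79a* and *Cd79b* stood at 1.11 and 1.1 in the same measure, and the dendritic cell genes *Flt3* and *Siglech* at 1.19 and 1.37. Both lists were mixed, with some other genes higher and some lower in osteoblasts 3 than in bone 3. Among the lower, *Vpreb3* was at 22.6 against 27.6 FPKM, *Vpreb1* at 9.66 against 11.4 and the dendritic cell gene *Zbtb46* at 1.73 against 3.69. The macrophage genes *C1qa* and *Csf1r* and the class I gene *B2m*, at 0.985, 0.946 and 0.906, lay below 1 and had the same order as *H2-Aa*. The macrophage list was mixed, with *Adgre1* at 1.18 and not in that order. *Mrc1* was at 10.1 FPKM in bone 3 and 18.6 in osteoblasts 3. *C1qb*, *Cd68* and *Fcgr1* were also higher in osteoblasts 3 than in bone 3, and *Cd14* was lower. The ratio of *H2-Ab1* to *Cd79b* was 4.83 and 5.51 in bone 3 and osteoblasts 2 and 2.4 in osteoblasts 3, whereas that of *H2-Oa* to *Cd79b* was 0.0757, 0.075 and 0.098. With 1 library each, these differences have no replicate error.

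**Figure D4:**
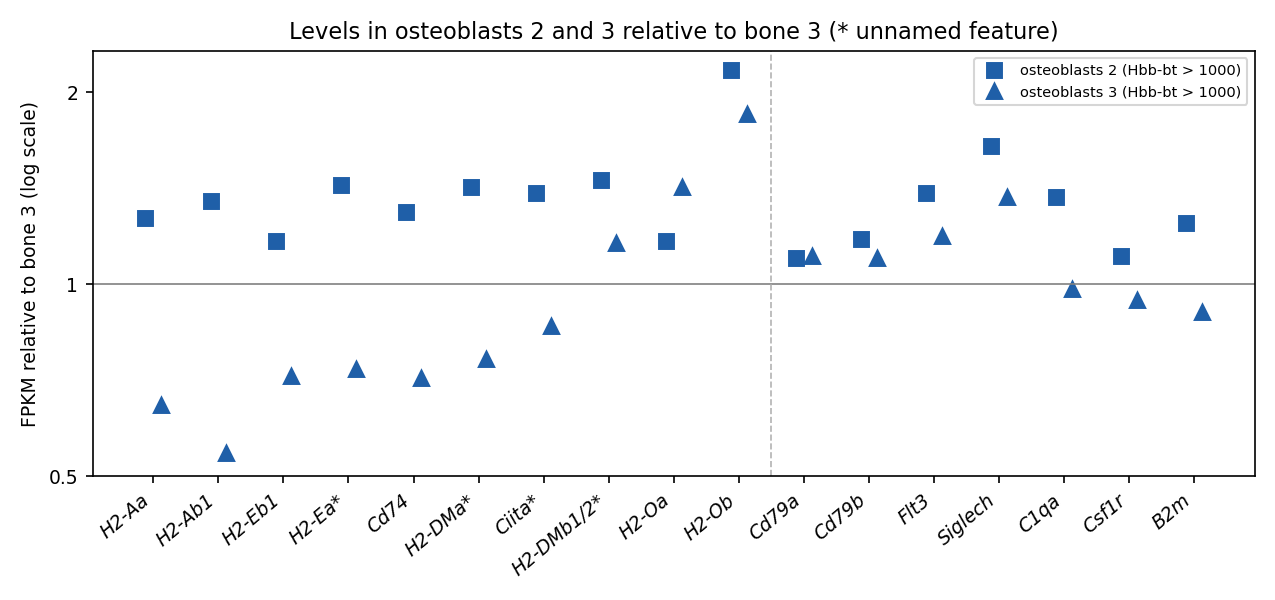
FPKM in osteoblasts 2 (squares) and osteoblasts 3 (triangles) relative to bone 3 (line at 1), on a log axis, for class II genes (left of the dashed line) and for B cell, dendritic cell, macrophage and class I genes (right). For *H2-Ab1* the values are 1.35 and 0.544, on both sides of the line, while for *H2-Ob* both lie above it (2.17 and 1.85); asterisks mark unnamed features.

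The genes whose pattern was most like the mean log2(FPKM + 1) of *H2-Aa*, *H2-Ab1*, *H2-Eb1* and *Cd74* over the 6 libraries were *Dnajb3* (Pearson r = 0.9998), *Ptprcap* (0.9996), *CR974487.1* (0.9994), *C530008M17Rik* (0.9993) and *Slc6a12* (0.9992). *Ptprcap*, which encodes a partner of the leukocyte phosphatase CD45, was at 29.3, 34.5 and 24.8 FPKM in bone 3, osteoblasts 2 and osteoblasts 3 and at 0 to 0.374 in the others. The 6 libraries fall into separate sets on this measure, so a high r is common: 2726 genes (22.5%) had an r of at least 0.9 and 483 (3.99%) of at least 0.99.

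By the deposited coordinates (GRCm38), the class II region holds *H2-Oa* at chr17:34092340-34095234, *H2-Ob* at chr17:34238903-34248608, *H2-Ab1* at chr17:34263209-34269418 and *H2-Eb1* at chr17:34305877-34316199 on the plus strand, and *H2-Aa* at chr17:34282744-34287827 on the minus strand. The unnamed features lie at chr17:34119898-34139101 over *H2-DMa*, at chr17:34143245-34160888 over the H2-DMb genes and at chr16:10480033-10527564 over *Ciita*, all on the plus strand. *Cd74* lies outside the region, at chr18:60803848-60812646. The deposited feature named *Tap2* runs over all 6210 bases of *H2-Ab1*, all 9706 of *H2-Ob* and 3848 of *H2-Aa*. *Tap2* was at 4.14 to 16.8 FPKM over the 6 libraries, whereas *H2-Ab1* ran from 0.0845 to 330.1, and how the authors' software shared reads among these features was not tested.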

How the data were processed

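RNA was measured in 3 libraries labelled bone and 3 labelled osteoblasts, and groups were taken from the labels. By the study's methods, the authors made libraries with a TruSeq RNA v2 kit, aligned paired reads of 75 bp to GRCm38 with HISAT2 2.0.5 against an index that knows SNPs, and estimated expression with StringTie (1.3.3 by the submitters' processing notes, which also give SAMtools 1.7). The authors deposited FPKM, TPM and mean coverage per feature, without read counts. FPKM are scaled to a library's mapped reads, so a share taken by globin or by unnamed features lowers the rest.

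FPKM were summed by gene name. The unnamed features for 4 genes were found by position and strand, with RefSeq of GRCm38.p6. Depth was read from the ratio of coverage to FPKM. limma 3.58.1 (R 4.3.3, with a trend) was run on log2(FPKM + 1) of the 12112 genes averaging 1 FPKM or more, with p-values adjusted by Benjamini-Hochberg over all of them and called under 0.05, after a test on simulated data. Exact permutation tests used scipy 1.17.1. Alternatives were other pseudocounts, filters, scalings and TPM, no trend, the replicate number as a block and leaving out each library. The named genes are the 10 class II genes, fixed lists of pathway and marker genes, *Hbb-bt* and the 5 genes most alike to class II. A gene of the B cell list is not reported here. *Fthl17f*, *Brd2* and *Tap2* were named after their values or positions were seen. The genes and lists were chosen with earlier results of these data known.

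Both labels use replicate numbers 1 to 3. Deviations from the label means correlated at 0.841, -0.747 and 0.83 for numbers 1, 2 and 3, so the numbers were not taken to pair the libraries.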

Additional observations from a re-analysis of the deposited data

Results flagged for a closer look

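An unnamed feature lies over *H2-Ea*, on the minus strand at chr17:34341995-34346738 (GRCm38). *H2-Ea* encodes the alpha chain that pairs with the product of *H2-Eb1*, and RefSeq lists it as a transcribed pseudogene in the reference genome. It is no member of the list of genes, and no named gene carried its signal. The feature was at 234 FPKM in bone 3, 335 in osteoblasts 2 and 173 in osteoblasts 3, and at 0.0655, 0 and 0.0797 FPKM in bone 1, bone 2 and osteoblasts 1, all below the floor. In the 3 libraries in which it was high, it stood at 59.0, 72.3 and 60.5 times *H2-Eb1*, its partner chain. Between the labels its log2 fold change was 2.66 (SE 2.52, limma adjusted p = 1.0, osteoblasts minus bone), and the exact permutation p was 0.5 (3 against 3, two-sided, smallest possible 0.1).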

How the results depend on the processing

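Of 99 log2 fold changes of the 6 named class II genes under the alternatives, 89 kept their side of the threshold, 10 passed it and none changed direction. The count of genes called, 0 with all libraries, ran from 0 to 300 when 1 library was left out, and that of class II genes from 0 to 4. With the replicate block there were 49 limma calls, 46 of them higher in osteoblasts and 3 lower (0.405% of the genes tested). They held 3 class II genes, *Cd74* (adjusted p = 0.013), *H2-Aa* (0.0075) and *H2-Ab1* (0.046). The block rests on numbers that do not pair the libraries, and bone 2 correlated best with osteoblasts 1 (0.8). All other alternatives called 0 genes, with 6 to 173 at an unadjusted p under 0.05. Leaving out 1 library moved the log2 fold change of *H2-Aa* between 1.15 and 5.53, *H2-Ab1* 0.77 and 4.88, *Cd74* 1.0 and 5.68, *H2-Eb1* 0.16 and 1.28, *H2-Oa* 0.47 and 1.82 and *H2-Ob* 0.67 and 2.06. The other settings gave 2.54 to 6.06, 2.11 to 3.16, 2.56 to 3.55, 0.41 to 1.69, 0.76 to 3.11 and 0.98 to 3.37, each highest with the pseudocount of 0.01. The median of all genes was 0.12 with all libraries and -0.03 after scaling to named genes. The test with unnamed features was added after seeing the data. No counts were used, so levels under the floor of 0.133 to 0.221 FPKM cannot be ordered.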
